A study of Arabidopsis thaliana with 11 samples.

Results

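CYP79A2, CYP78A9, CYP71B22 and CYP71B29 are 4 cytochrome P450 genes of Arabidopsis thaliana whose transcripts differed between the stigma and the ovary of the same pistil. They were picked by name because of that difference, and each was represented by 1 probe set, a group of short oligonucleotides that reports 1 transcript on the Affymetrix ATH1 array. The platform annotation named 13350 genes by a probe set of their own. Of these, 23 were cytochrome P450 genes, where the reference gene table lists 251. The 4 genes described here thus leave 19 others for comparison, 17 of them of the CYP71B subfamily, which do not stand for the whole family. All plants were of the accession Landsberg erecta (Ler). The stigma (3 arrays) and the ovary (4 arrays) came from pistils of buds emasculated at stage 8 and harvested 1 day later, with the stigma cut from the ovary by scissors; the seedling (4 arrays) was the whole plant, grown for 10 days on Murashige and Skoog plates. The study contrasted the 3 tissues under a title that names pollination. Whether arrays of a tissue came from separate plants is not stated in the labels, so p-values measure the spread between these arrays, which may be technical in part.

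Cytochrome P450 enzymes are membrane-bound haem proteins that insert an oxygen atom into small molecules, and plants use a large family of them to make hormones, defence compounds, pigments and wax. CYP79 enzymes turn an amino acid into an aldoxime, the entry step of glucosinolate synthesis, and CYP79A2 does so with phenylalanine, which leads to benzylglucosinolate. CYP78A enzymes promote organ growth. CYP78A9 is known from plants that overexpress it and form large seedless fruits, and it acts in the ovule and the growing seed. CYP71B is a large subfamily that lies in part in tandem arrays, and its best known member makes the antimicrobial compound camalexin; no role is given here for CYP71B22 or CYP71B29.

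Expression values were linear signal intensities, scaled by the authors to a common mean on each array. The 2% trimmed mean was 500.03 to 500.04 on all 11 arrays. Differences below are of log2(signal + 17.2), where 17.2 is the 10th percentile of all values; the added constant understates the change of dim transcripts, and CYP78A9, CYP71B22 and CYP71B29 passed 277.8 on no array. Where a tissue's mean, or all but 1 of its arrays, lay under 17.2, a difference against it is called a bound. The word refers to the added constant alone, and the estimate can still err in either direction by its SE. The stigma markers SLR1 and STIG1 summed to 13010 to 14675 on stigma arrays, 155.5 to 1854 on ovary arrays and 63.6 to 91.8 on seedling arrays. On stigma arrays nearly all of it was SLR1. STIG1 was dim and overlapped between all tissues, at 16.1 to 99.7 in stigma, 21.7 to 32.8 in ovary and 17.2 to 24.8 in seedling. For the GAPDH control the log2 ratio of 3' over 5' signal, a measure of RNA integrity, was 1.09 to 2.27 in stigma, 0.70 to 1.11 in ovary and 0.25 to 0.55 in seedling. For the actin control it was larger, at 2.41 to 4.14 in stigma, 1.70 to 3.03 in ovary and 1.46 to 2.49 in seedling, with overlap between the tissues. Stigma array 1 had the highest ratio for both controls. The part of RNA integrity in the results was not tested. In bulk tissue, fewer cells of a type and less transcript per cell cannot be told apart.

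**Figure D1:**
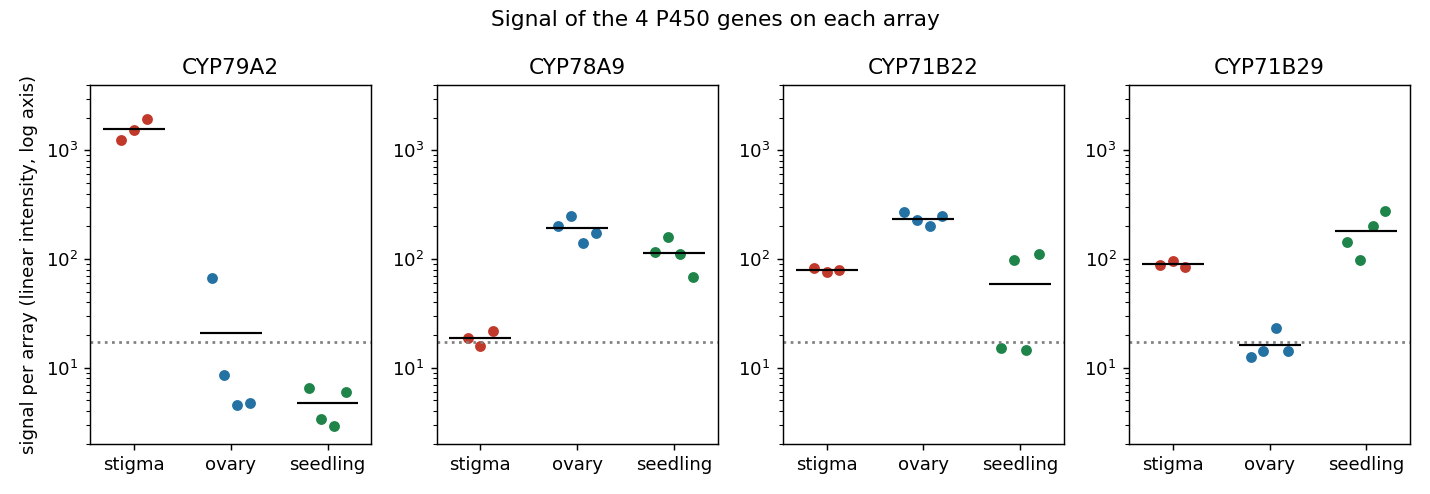
Signal of CYP79A2, CYP78A9, CYP71B22 and CYP71B29 on each of the 11 arrays (points; vertical log axis, linear intensity units), with the mean of each tissue as a bar and the 10th percentile of all values, 17.2, as a dotted line. CYP79A2 lies at 1235 to 1939 in stigma and under 70 elsewhere, CYP78A9 and CYP71B22 are highest in ovary, and CYP71B29 is highest in seedling and lowest in ovary.

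CYP79A2 (AT5G05260) was a stigma transcript. Its signal was 1235.2, 1545.2 and 1938.9 on the 3 stigma arrays. On ovary arrays 1 to 4 it was 66.2, 8.6, 4.5 and 4.7, and on seedling arrays 1 to 4 it was 6.5, 3.4, 2.9 and 6.0. Every stigma array thus exceeded every other array, while ovary and seedling arrays overlapped and lay under 17.2 on all but ovary array 1. The stigma mean of 1573 ± 353 (SD, n = 3) stood against 21.0 ± 30.2 in ovary (n = 4) and 4.70 ± 1.81 in seedling (n = 4). The difference of stigma minus ovary was 5.62 (SE 0.43) and that of stigma minus seedling 6.16 (SE 0.43), both bounds, on the log2 scale. These are given without a test, because the gene was chosen for its difference within the pistil.

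Ovary array 1 carried more CYP79A2 than the other ovary arrays and also more of the stigma marker. SLR1 reached 1832.3 on it, where ovary arrays 2 to 4 had 124.0 to 316.4. STIG1 was at 21.7 there and at 28.9 to 32.8 on those 3, but it did not separate stigma from ovary in these data. The part of stigma tissue in that array was not tested. A run here means arrays scanned in the same calendar month. Within run A, which held stigma 1, ovary 1 and ovary 2, the stigma minus ovary difference was 4.75 (SE 0.59). It was 6.33 (SE 0.48) within run B, which held stigma 2, stigma 3, ovary 3 and ovary 4. Without ovary 1 it was 6.08.

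CYP78A9 (AT3G61880) had the reverse order within the pistil. It gave 18.9, 15.7 and 21.7 on the stigma arrays, close to 17.2, and 202.6, 248.7, 141.8 and 172.7 on the ovary arrays. Seedling arrays had 116.6, 160.1, 111.6 and 68.8. No stigma array reached the level of any ovary or seedling array, whereas ovary and seedling overlapped. Stigma minus ovary was −2.51 (SE 0.28), with −2.74 for run A and −2.28 for run B, and stigma minus seedling was −1.83 (SE 0.28). The ovary minus seedling difference was 0.69 (SE 0.26), under 2-fold.

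CYP71B22 (AT3G26200) was also highest in the ovary, with 268.3, 228.6, 199.5 and 246.9 on the ovary arrays against 81.9, 75.7 and 78.5 on the stigma arrays. Its seedling arrays fell into pairs, with 15.1 and 14.6 on seedling arrays 1 and 3 and 97.5 and 110.4 on seedling arrays 2 and 4. The ovary exceeded all other arrays, and the seedling values lay on both sides of those of the stigma. Each of the 2 seedling runs held 1 array of the lower and 1 of the higher pair. The stigma minus ovary difference was −1.39 (SE 0.45), with −1.42 for run A and −1.34 for run B, and ovary minus seedling was 2.02 (SE 0.42), with 2 seedling arrays under 17.2. Among the stigma arrays the SD was 3.11 around a mean of 78.7, and among the seedling arrays it was 51.7 around 59.4.

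CYP71B29 (AT1G13100) was the member that was lowest in the ovary. Its signal was 12.6, 14.3, 23.4 and 14.3 on the ovary arrays, under 17.2 on 3 of the 4. The stigma arrays had 88.7, 96.8 and 84.8, and the seedling arrays 144.7, 98.1, 202.8 and 277.8. The 3 tissues did not overlap, although the lowest seedling array (98.1) and the highest stigma array (96.8) nearly met. Stigma minus ovary was a bound at 1.70 (SE 0.32), with 1.79 for run A and 1.59 for run B. Stigma minus seedling was −0.80 (SE 0.32), under 2-fold, and ovary minus seedling was a bound at −2.50 (SE 0.30). The gene passed the filter on dim probe sets, a signal over 144.2 on at least 3 arrays, through its seedling arrays, 1 of them at 144.7.

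The order of the tissues differed among the 4 genes. Both CYP78A9 and CYP71B22 were highest in ovary, but the seedling was closer to the ovary for CYP78A9 and closer to the stigma for CYP71B22. CYP79A2 was high in stigma and under 17.2 on every other array but ovary array 1. CYP71B29 was present in seedling and stigma and near 17.2 in ovary. For each of the 4 genes the stigma arrays did not overlap with the ovary arrays, which restates how they were chosen. Of all 15524 probe sets tested, 15.8% were called between stigma and ovary at an adjusted p under 0.05 and at least 2-fold, 6.27% higher and 9.51% lower in stigma; 39.7% of the calls were thus higher in stigma, and 52.5% with equal array medians.

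The comparison of the whole pistil with the seedling is another contrast than the difference within the pistil. Its estimate weights all 7 pistil arrays equally and is uncorrelated with the stigma minus ovary difference if variances are equal, so it was tested. The members may have been chosen with their seedling levels known, so the p-values are not independent of that choice. CYP79A2, CYP71B22 and CYP71B29 were called and CYP78A9 was not, in limma's moderated test with Benjamini-Hochberg adjustment over all 15524 probe sets. That rule called 21.7% of the whole table, 9.47% as higher and 12.2% as lower in the pistil, and the median difference over all of them was 0.11. CYP79A2 was higher in the pistil by 2.95 (a bound, SE 0.35, adjusted p = 1.13e-05 in limma), a mean over stigma arrays that were all high and ovary arrays that overlapped with seedling. Its ovary minus seedling difference was 0.54 (SE 0.40), so the pistil value rests mostly on the stigma level for which the gene was picked. CYP71B22 was higher by 1.42 (SE 0.37, adjusted p = 0.00551 in limma), with the ovary arrays above all seedling arrays and the stigma arrays among them. CYP71B29 was lower in the pistil (difference −1.77, a bound in its ovary part, SE 0.26, adjusted p = 8.2e-05 in limma), and all 7 pistil arrays were below all 4 seedling arrays. CYP71B29 passed the filter through seedling arrays alone, CYP79A2 through stigma arrays and CYP71B22 through ovary arrays, so their calls are not counted as support for a pattern over the 4 genes. With no filter the adjusted p in limma was 1.05e-05 for CYP79A2, 0.00749 for CYP71B22 and 6.64e-05 for CYP71B29.

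For CYP78A9 the pistil minus seedling difference was −0.39 (SE 0.23, adjusted p = 0.170 in limma), with a 95% confidence interval from −0.89 to 0.11, which holds 0 and ends short of 2-fold. Its pistil arrays lay on both sides, stigma below and ovary partly above the seedling. Runs of scanning and tissues cannot be told apart here, since seedlings were scanned in runs of their own, but chip lots 1 and 2 held all 3 tissues. Within lots 1 and 2 the pistil minus seedling difference was 2.55 and 3.24 for CYP79A2, −1.81 and −0.89 for CYP71B29, 2.56 and 0.39 for CYP71B22, and −0.06 and −1.17 for CYP78A9. The calls of CYP71B22 (adjusted p = 0.656) and CYP71B29 (adjusted p = 0.103) ended within lot 2, where the seedling was 1 array, number 2, which had the lowest CYP71B29 and a high CYP71B22 value, and CYP78A9 had an adjusted p of 0.0337 there. Lot 1 held 1 stigma and 1 seedling array, so within either lot the spread of a lone array was taken from the other groups. The call of CYP71B22 also ended with run as a random block (adjusted p = 0.0615).

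**Figure D2:**
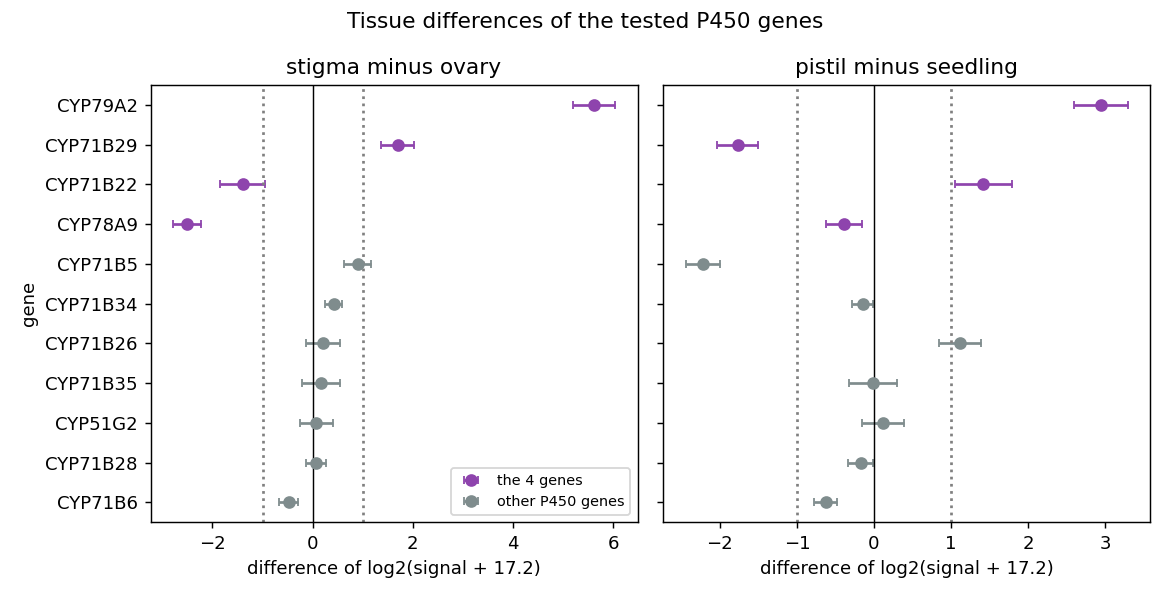
Differences of log2(signal + 17.2) for the 11 tested P450 genes (points, with standard errors of the fit as bars), for stigma minus ovary on the left and pistil minus seedling on the right; dotted lines mark 2-fold. The 4 genes of this account (upper rows) lie outside 2-fold for stigma minus ovary, for which they were chosen, and the 7 others lie within it; CYP71B5 and CYP71B26 lie outside 2-fold for pistil minus seedling.

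Of the 19 other named P450 genes, 7 passed the filter on dim probe sets, 6 of them of the CYP71B subfamily. None of these 7 was called between stigma and ovary by limma, and 3 had an unadjusted p under 0.05; with 15.8% called over all probe sets, a count of 0 in so few genes is not a result about the family. CYP71B5 came nearest, with 55.0 ± 5.13 in stigma and 22.3 ± 9.42 in ovary (difference 0.90, SE 0.27, adjusted p = 0.0201 in limma), under 2-fold; it was called without ovary array 1 (1.03). CYP71B34 differed by 0.42 (SE 0.16, adjusted p = 0.0585 in limma), and CYP71B6, known to oxidise indole acetonitrile, by −0.48 (SE 0.19, adjusted p = 0.0620 in limma). CYP71B26, CYP71B28, CYP71B35 and CYP51G2, a relative of the sterol demethylase gene, differed by 0.07 to 0.21.

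Between the pistil and the seedling, 2 of these 7 genes were called, where 21.7% of all probe sets were. CYP71B5 was lower in the pistil (difference −2.22, SE 0.22, adjusted p = 2.33e-06 in limma), with 191.3 to 263.8 on seedling arrays and at most 60.7 on any pistil array; it passed the filter through seedling arrays alone, and with no filter its adjusted p in limma was 1.61e-06. CYP71B26 was higher (1.12, SE 0.28, adjusted p = 0.00404 in limma), with 208.1 to 616.1 on the pistil arrays and 82.1 to 203.0 on the seedling arrays; its call ended in 7 of 22 alternatives, among them without seedling array 4 (0.86) and without ovary array 2 (0.99). CYP71B5 and CYP71B29 shared the order seedling, stigma, ovary, with no overlap between the tissues for either gene.

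The 12 P450 genes below the filter had tissue means of at most 153. Among them CYP71B37 was lower in stigma (3.6 to 11.6) than in ovary (34.8 to 52.0) and seedling (38.3 to 80.8), without overlap. With no filter on dim probe sets it was called between stigma and ovary (a bound at −1.37, SE 0.26, adjusted p = 0.00160 in limma), and CYP71B31 and CYP71B23 were called between pistil and seedling (1.28, a bound, and −1.16). CYP71B31, which oxidises linalool in flowers, had 8.0 to 140.2 in ovary, 17.0 to 65.9 in stigma and 2.3 to 9.4 in seedling. No CYP78A gene other than CYP78A9, of the 5 listed, had a probe set named here.

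The CYP71B genes also allowed a comparison of chromosomal neighbours, read from the order of genes in the TAIR10.1 reference table. CYP71B22 lies between CYP71B21 and CYP71B23. CYP71B23 did not share its pattern, with 124.6 to 184.2 in seedling, 47.5 to 100.7 in ovary and 47.6 to 48.8 in stigma, so that seedling was highest where CYP71B22 had ovary highest. CYP71B21 was dim, at 1.9 to 60.9 in stigma, 3.3 to 26.3 in ovary and 1.4 to 5.6 in seedling. CYP71B24, the third gene beyond CYP71B22, was at 63.3 to 64.9 in stigma, 26.6 to 54.8 in ovary and 28.3 to 59.0 in seedling.

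Next to CYP71B29 lies CYP71B28, which was measured at 346.7 to 405.4 in stigma, 308.6 to 375.8 in ovary and 263.1 to 502.9 in seedling. Its stigma minus ovary difference was 0.07 (SE 0.20, 95% confidence interval −0.37 to 0.50), so a difference as large as that of CYP71B29 lies outside its interval. The gene after CYP79A2, CHIL, a chalcone isomerase-like gene of flavonoid synthesis, had a mean of 483 ± 99.4 for stigma, 1401 ± 148 for ovary and 524 ± 404 for seedling. Its stigma minus ovary difference of −1.52 (SE 0.79) was not called (adjusted p = 0.157 in limma). Stigma arrays (412.0 to 596.5) nevertheless all lay below ovary arrays (1267.8 to 1579.6). The SE comes from 1 spread shared by the tissues, and seedling arrays ran from 21.0 to 969.5. The gene before CYP79A2, AT5G05250, was at 9.0 to 24.6 in stigma, 12.9 to 74.8 in ovary and 58.6 to 520.9 in seedling. Its stigma minus ovary difference was −0.82 (SE 0.57, adjusted p = 0.293 in limma), not called. It was called lower in the pistil than in the seedling (−2.37, SE 0.47, adjusted p = 0.000843 in limma), where CYP79A2 was higher. The gene before CYP78A9, AT3G61870, had 2492 ± 419 in stigma and 2412 ± 232 in ovary (0.04, SE 0.15).

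**Figure D3:**
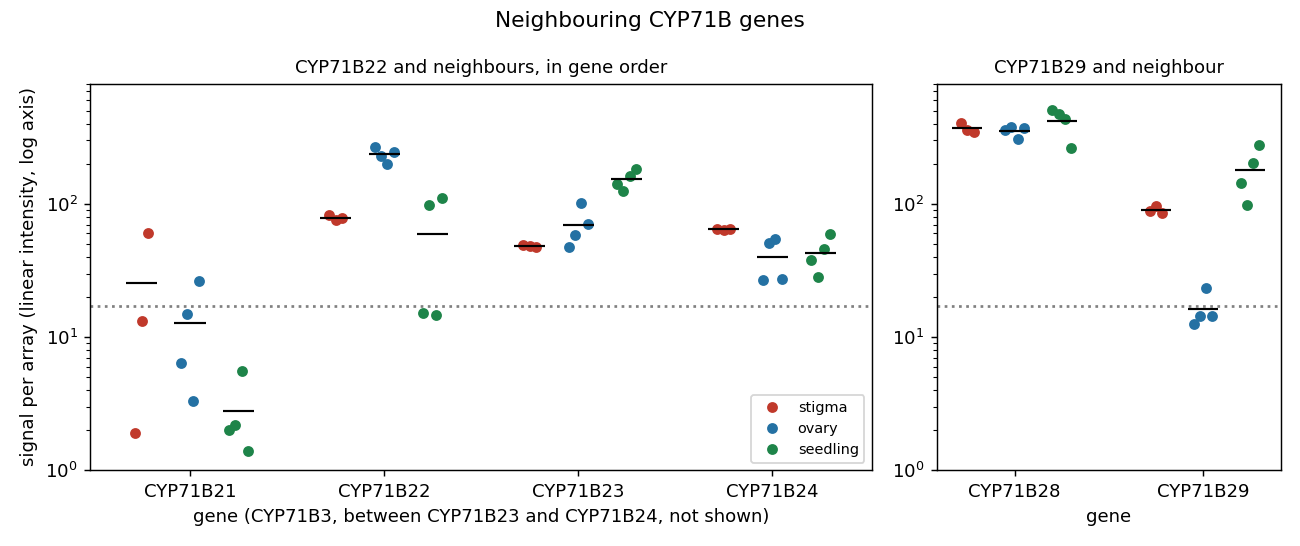
Signal on each array (points; vertical log axis, linear intensity units) of CYP71B genes in their order on the chromosome around CYP71B22 (left) and of CYP71B28 beside CYP71B29 (right), with tissue means as bars and 17.2 as a dotted line. CYP71B22 is highest in ovary while CYP71B23 is highest in seedling, and CYP71B28 stays between 263 and 503 on all arrays while CYP71B29 drops to 12.6 to 23.4 in ovary.

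Because CYP79A2 opens a glucosinolate pathway, the other genes of aldoxime and glucosinolate metabolism were read beside it. Of 44 listed genes 4 had a named probe set, and all 4 were tested. All 4 were called lower in stigma than in ovary, where 9.51% of all probe sets were, with a median difference of −2.40 against −0.07 over all probe sets. Their order was thus opposite to that of CYP79A2 within the pistil. The list was chosen with earlier results of these data known. Its counts, here and against the seedling, therefore describe these 4 genes and are no support for a pattern of the pathway. All 4 stayed in that direction with equal array medians and with quantile normalization.

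BCAT4, which deaminates methionine at the start of side-chain elongation, had 30.0 to 106.1 in stigma and 470.6 to 1396.3 in ovary (difference −3.69, SE 0.63, adjusted p = 0.000579 in limma). GSTU20, a glutathione transferase gene of the core pathway, had 218.1 to 345.6 and 2127.8 to 3289.9 (−3.01, SE 0.51, adjusted p = 0.000500 in limma). UGT74B1, whose enzyme adds the glucose in the core pathway, had 161.2 to 220.9 and 639.2 to 882.0 (−1.79, SE 0.28, adjusted p = 0.000257 in limma). AOP3, a side-chain modifying gene, had 149.5 to 200.6 and 530.2 to 771.6 (−1.78, SE 0.49, adjusted p = 0.0121 in limma); within run A, which holds 1 stigma array, the difference was −1.77 and the adjusted p in limma 0.0545. None of the 4 overlapped between stigma and ovary. The share of all probe sets without such overlap was not counted, so this only describes the 4 genes.

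In the comparison of pistil and seedling, 3 of these 4 were lower in the pistil, where 12.2% of all probe sets were: BCAT4 (−2.79, SE 0.52), AOP3 (−2.13, SE 0.40) and GSTU20 (−1.70, SE 0.42). UGT74B1 differed by −0.91 (SE 0.23, adjusted p = 0.00429 in limma), under 2-fold; it was called in 9 of 22 alternatives, among them chip lot as a block (−1.31), within lot 1 (−1.42), within lot 2 (−1.18) and without seedling array 4 (−1.20). Seedling array 4 was the lowest seedling array for all 4 genes, with 502.7 for BCAT4 against 2585 or more on the others. None of the 13 listed genes of phenylalanine supply had a named probe set.

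**Figure D4:**
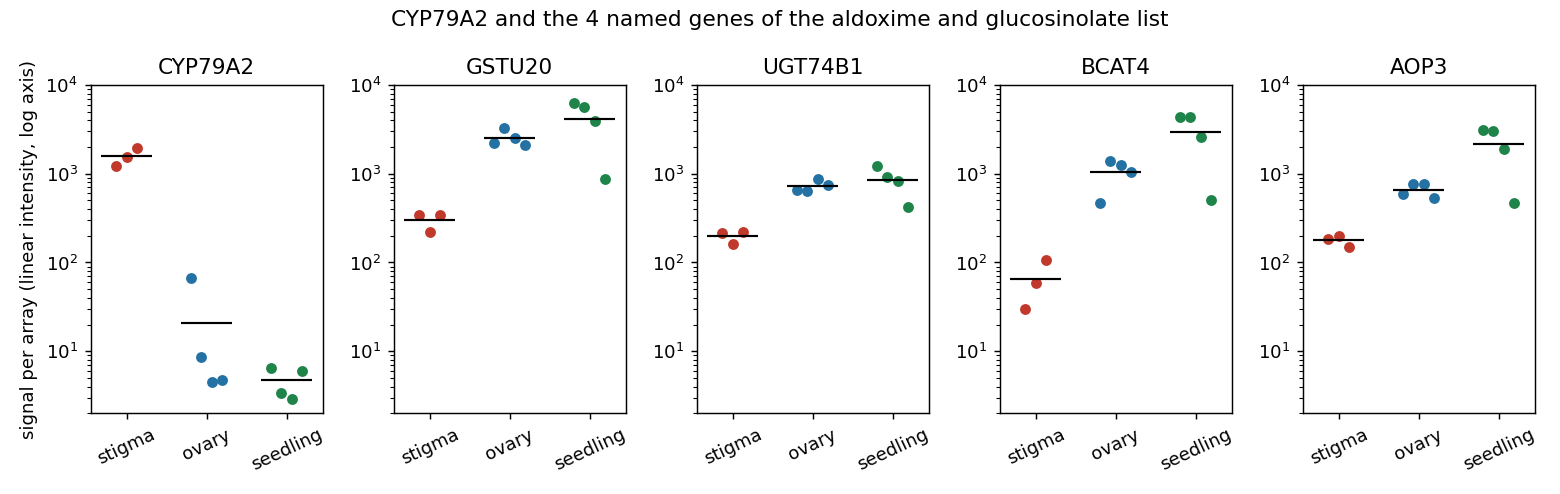
Signal on each array (points; vertical log axis, linear intensity units; bars are tissue means) of CYP79A2 and of GSTU20, UGT74B1, BCAT4 and AOP3, the 4 named genes of the aldoxime and glucosinolate list. CYP79A2 is high in stigma alone, while the other 4 are lowest in stigma on all 3 arrays and seedling array 4 lies below the other seedling arrays.

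Markers of other tissues were set beside the 4 genes. The nectary marker SWEET9, the named gene of a list of 2, was at 4565 to 7491 in ovary, 143.4 to 183.1 in stigma and 61.3 to 146.3 in seedling, and INO and ALC, the 2 named of 6 ovule and ovary markers, summed to 1394 to 1860 in ovary, 570.0 to 727.3 in stigma and 240.5 to 440.3 in seedling. They moved with CYP78A9 and CYP71B22 within the pistil, and their part in those results was not tested. The 7 named of 9 pollen markers summed to 648.1 to 1036 in stigma, 600.3 to 780.5 in ovary and 643.1 to 1147 in seedling, most of it TUA1, and the pollen marker ANX1 was at 11.6 or less on every array. Below the filter, the pollen marker AT59 was at 82.8 to 128.5 in stigma, 7.1 to 56.4 in ovary and 5.2 to 9.1 in seedling, without overlap between stigma and either other tissue. ANX2 was at 40.7 to 153.7 in stigma, 9.8 to 40.8 in ovary and 19.9 to 38.7 in seedling, so stigma and ovary overlapped. ACT12 had 4.3 on stigma array 1, 55.6 and 54.6 on the other 2 and at most 24.2 elsewhere. AT59, ANX2 and ACT12 had their highest values in stigma, as CYP79A2 did, and their part in its level was not tested. Other markers of the list had their highest values in seedling. SHT was at 10.0 to 30.0 in stigma, 23.5 to 30.0 in ovary and 30.0 to 67.5 in seedling. HTR10 was at 12.1 to 19.9, 11.4 to 26.1 and 7.4 to 42.7, and TUA1 at 495.6 to 659.6, 507.9 to 656.7 and 568.1 to 1007.4. The pollen markers thus did not share 1 order of tissues. The 3 named root markers of 4 summed to 12697 to 16842 in seedling and at most 319.7 in the pistil, nearly all of the seedling sum being PYK10, and the 3 leaf markers PRK, LHCB4.2 and SBPASE summed to 30837 to 37638 in seedling and 8376 to 9958 in the pistil. Both lists were highest in seedling, as CYP71B29 was, and their part in its level was not tested. WSD1, a wax gene, was at 3176 to 3498 in ovary, 1407 to 1960 in stigma and at most 20.2 in seedling.

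The genes whose signals followed each member most closely were read from the Pearson correlation of log2(signal + 17.2) over the 11 arrays, among 8495 tested probe sets that name 1 gene. Arrays of a tissue share that tissue, so these correlations mostly follow the 3 tissue means and carry no p. Nearest to CYP79A2 were AT5G38900 (r = 0.997), AT1G47280 (r = 0.997) and AT5G11400 (r = 0.996), and 69 probe sets reached 0.95. AT1G47280 had mean signals of 1010 ± 144 in stigma, 30.1 ± 42.7 in ovary and 4.28 ± 1.46 in seedling. Nearest to CYP78A9 were AT5G56790 (r = 0.980), AT5G62550 (r = 0.969) and AT3G02640 (r = 0.965), with 5 probe sets at 0.95 or more. For CYP71B29 they were AT5G58570 (r = 0.980), AT5G13720 (r = 0.980) and AT1G21670 (r = 0.979), with 13. CYP71B22 had none at that level, and its nearest were AT3G54000 (r = 0.945), AT1G62880 (r = 0.930) and AT1G11240 (r = 0.924). Among these, AT3G54000 had 448 ± 34.2 in ovary, 250 ± 26.7 in stigma and 242 ± 70.3 in seedling.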

How the data were processed

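RNA of 3 stigma, 4 ovary and 4 seedling samples was measured on Affymetrix ATH1 arrays, per the file headers. The deposited values are linear signal intensity values, which the authors had scaled to a common mean, as read from the values. Which software did so is not given in the sources used. The deposited run information holds no expression values (unit other) and gave chip lots 1 to 3 and scan dates. Runs A to D are a grouping made here of arrays scanned in the same calendar month. Leaving out 64 control probe sets gave 22746, of which 15524 were tested, those over 144.2 (the 40th percentile) on 3 or more arrays. One mean per tissue was fitted to log2(signal + 17.2) over all 11 arrays in limma 3.58.1 (R 4.3.3, variance trend, 8 residual and 5.19 prior degrees of freedom). The number of arrays limits the precision. A call needs a Benjamini-Hochberg adjusted p under 0.05 and a difference of at least 2-fold. The fit was also run on simulated data with independent noise on each array. Arrays of a run deviated together in the real data, so the simulation does not give the error rate of the calls here. The annotation named 1 gene for 13513 probe sets and several for 503; 8730 were unlisted, and such probe sets are unnamed. P450 genes were found by symbol or synonym of the form CYP, digits, letters, digits. All tested CYP71B, CYP78A and CYP79 genes, the named glucosinolate genes and the 3 nearest genes by correlation are described. Of the CYP71B genes below the filter, only those called without it and those near CYP71B22 are described. CYP71B16, CYP71B25, CYP71B27, CYP71B30P, CYP71B36 and CYP71B38 are not described one by one. Members and lists were chosen with earlier results of these data known, which may include their seedling levels. No sequences were used, and no genome coordinates.

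Alternatives were another pseudocount (144.2), no filter and a stricter one (343.2), equal medians, quantile normalization, run, chip lot or replicate number as a block, single runs and lots, and arrays left out.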

Additional observations from a re-analysis of the deposited data

Results flagged for a closer look

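In 30 groups of 4 arrays (ovary and seedling, for the 4 genes, the 7 other tested P450 genes and the 4 glucosinolate genes), the highest or lowest array stood apart from the rest in 2, where chance flags about 1 in 20 groups. CYP79A2 on ovary array 1 was 66.2, against 4.5 to 8.6 on the other ovary arrays. CYP71B29 on ovary array 3 was 23.4, against 12.6 to 14.3, a gap among values close to the 10th percentile of all signals.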

How the results depend on the processing

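Stigma minus ovary kept its direction for all 4 genes under every alternative that was run. With the larger pseudocount of 144.2 it shrank to 3.37 for CYP79A2, −1.03 for CYP78A9, −0.77 for CYP71B22 and 0.55 for CYP71B29. The values for CYP71B22 and CYP71B29 were then under 2-fold. For CYP79A2 it was 4.75 in run A, 6.33 in run B and 6.24 without stigma 1, ovary 1 and seedling 4 together. Pistil minus seedling of CYP79A2 was called in all 22 alternatives. That of CYP71B22 lost its call with the larger pseudocount (0.60), with run as a random block (1.42) and within chip lot 2 (0.39), that of CYP71B29 with the larger pseudocount (−0.75) and within lot 2 (−0.89), and that of CYP78A9 gained one within lot 2 (−1.17). Over all alternatives adjusted p in limma ran from 2.26e-07 to 0.00974 for CYP79A2, 0.000617 to 0.656 for CYP71B22, 4.38e-05 to 0.103 for CYP71B29 and 0.0337 to 0.915 for CYP78A9. Leaving out 1 array at a time gave 5.44 to 6.08, −2.64 to −2.39, −1.46 to −1.33 and 1.64 to 1.79 for stigma minus ovary of CYP79A2, CYP78A9, CYP71B22 and CYP71B29, and 2.36 to 3.44, −0.63 to −0.13, 1.10 to 1.76 and −2.00 to −1.55 for pistil minus seedling. The count of other P450 genes called between stigma and ovary, 0 of 7, became 1 with no filter (CYP71B37, of 19 tested), with equal medians and without ovary 1 (CYP71B5). The count of P450 genes called between pistil and seedling was 5 of 11, where 21.7% of all probe sets were called. It includes the 4 chosen members, so it is not a result about the family. This count became 2 with the larger pseudocount, 2 of 5 with the stricter filter and 3 within lot 2. It was 7 of 23 with no filter, where CYP71B31 and CYP71B23 joined, and without 1 array it was 4 to 5. The cause was not tested, except that the filters change the genes tested. Under the stricter filter CYP79A2 alone of the 4 was left. Over all probe sets, 1408 instead of 2450 were called between stigma and ovary and 2170 instead of 3364 between pistil and seedling with the larger pseudocount; with equal medians the share of stigma and ovary calls that were higher in stigma went from 39.7% to 52.5% and the median difference from −0.07 to 0.09. Same-numbered arrays mostly did not deviate together (r of −0.08 to 0.26 over 10 pairs, 2 above 0.1, both within a run), so numbers are not treated as pairs. With a replicate block stigma minus ovary was 5.55, −2.63, −1.21 and 1.79 and pistil minus seedling 2.92, −0.44, 1.50 and −1.73 for the 4 genes in the same order, and no call changed. Arrays of a run did deviate together, with a correlation of 0.38, and the main fit treats them as independent. With run as a random block the SE of pistil minus seedling was 0.52, 0.32, 0.57 and 0.35 for the 4 genes in that order. The main fit gave 0.35, 0.23, 0.37 and 0.26. The files hold no detection calls, which limits what can be said of signals near 17.2.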
